A study of Drosophila melanogaster with 3 samples.

Results

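The nuclear transfer RNA (tRNA) genes examined here are those whose anticodon begins with an adenosine that is read as inosine. They were selected by symbol, as the nuclear genes of the Ala-AGC, Pro-AGG, Thr-AGT, Val-AAC, Ser-AGA, Arg-ACG, Leu-AAG and Ile-AAT families. The rule found 64 genes among the 290 nuclear tRNA genes and 3546 noncoding genes of the authors' deposited table.

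The study measured small RNA in whole heads of adult Drosophila melanogaster males after Sex-lethal (Sxl), the RNA-binding switch protein of fly sex determination, had been expressed in neurons. The Sxl-RAC heads carried UAS-SxlRAC and the attP2 control heads carried UAS-mCherry, a fluorescent protein, inserted at attP2. In both, nSyb-GAL4 drove expression in neurons. The labels add tub-GAL80ts, a temperature-sensitive brake on GAL4, to the Sxl-RAC genotype, and they do not repeat it for the control. Flies were raised at 18 °C and kept at 29 °C for 4 days after eclosion. Per the labels there were 3 Sxl-RAC samples, and the series asks whether Sxl promotes tRNA synthesis by RNA polymerase III in male neurons. Whole heads also contain glia, muscle, fat body and cuticle, in which the neuronal driver is not active. A change confined to neurons would be diluted, and fewer cells of a type cannot be told apart from less RNA per cell. Sxl has no row in the table, nor has any protein-coding gene, so expression of the transgene could not be checked in it.

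The table does list noncoding markers of sex and tissue, and those given here were chosen after their values were seen. In the authors' deposited table the male-specific dosage compensation RNA lncRNA:roX1 had a mean count of 26.1 and a log2 value of -1.38 (SE 0.49, DESeq2 adjusted p 0.298). There lncRNA:roX2 had a mean count of 2.61 and a log2 value of -0.15 (SE 1.40, DESeq2 adjusted p 0.971). The muscle microRNAs were abundant there, mir-1 with a mean count of 4750 and mir-133 with 6835, while mir-124, a microRNA of neurons, had 12.9. The log2 value of mir-124 was -0.12 (SE 0.59), with no adjusted p. In Sxl-RAC heads mir-1 fell and mir-133 rose, with log2 values in the authors' deposited table of -0.46 (DESeq2 adjusted p 1.41e-06) for mir-1 and 0.23 (DESeq2 adjusted p 0.0173) for mir-133. The part of any change in tissue makeup in the tRNA values was not tested.

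Inosine is a deaminated adenosine. At the first position of the anticodon, the wobble position, the enzyme pair ADAT2 and ADAT3 makes it, and it lets a single tRNA read codons that end in U, C or A. In animals, most codon boxes with more than a pair of synonymous codons are read by such a tRNA together with partner isoacceptors that start with C or U. The genes are transcribed by RNA polymerase III and occur as many identical copies, so a read often cannot be assigned to a single copy. The table counts reads per gene and holds no measurement of the modification itself. Short cDNA libraries from tRNA sample fragments as well as mature molecules, and modified bases can stop reverse transcription.

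The authors' deposited table gives a mean normalised count per gene over the libraries, the log2 fold change of Sxl-RAC over control, the standard error (SE) of that value, and DESeq2's Wald test. It has no column for a single library. Whole read counts in 3 Sxl-RAC and 3 control libraries were recovered by calculation from the deposited values, for all 64 genes. The libraries of an arm are called a, b and c in falling order of size factor. A letter does not pair libraries between arms and is not tied to a listed sample. Reads on the 64 genes numbered 1393, 1446 and 997 in Sxl-RAC libraries a, b and c, and 4181, 2323 and 1354 in control libraries a, b and c. Values below are reads divided by the size factor of the library within the tRNA genes, called normalised reads. Nothing says whether the libraries came from separate groups of flies, so p-values measure only the spread between these libraries. With 3 libraries against 3, the smallest p of an exact two-sided permutation test is 0.1, and no single comparison of library values could pass a threshold of 0.05.

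The inosine tRNA genes were a small part of tRNA reads. They made up 22.1% of nuclear tRNA genes and 0.301% of their summed mean counts, 1731 of 574087. Ala-AGC held 64.02% of the counts of the 64 genes, Pro-AGG 28.1%, and the other 6 families together 7.91%. Of the 64 genes 60 had reads, 21 reached a mean count of 10 and 20 had an adjusted p. Those 20 were the 12 Ala-AGC genes, the 7 Pro-AGG genes and tRNA:Arg-ACG-1-3. That gene, at a mean count of 11.3, was the lowest of all tRNA genes with an adjusted p, while tRNA:Ile-AAT-1-3 at 10.9 had none. The 4 genes without reads were tRNA:Arg-ACG-1-8, tRNA:Arg-ACG-1-9, tRNA:Val-AAC-1-2 and tRNA:Thr-AGT-2-1, and a count of 0 in a library allows up to 3 reads there.

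In the authors' deposited table none of the 20 genes passed DESeq2's Wald test, with the threshold set at 0.05 for the adjusted p. Among the 137 nuclear tRNA genes that have an adjusted p, 29 passed (were called), which is 21.2%. The calls divide into 14.6% higher and 6.57% lower, and at a threshold of 0.1 the share lower was 11.7%, with 1 inosine tRNA gene. The inosine tRNA genes were shallower than most of these: their median mean count was 88.8 and their median standard error 0.22, against 1322 and 0.10 for the 117 other nuclear tRNA genes. Of the 34 other nuclear tRNA genes whose mean counts lay between 11.3 and 169, the span of the 20 genes, 2 were called (5.88%). At an unadjusted p under 0.05 there were 2 inosine tRNA genes, tRNA:Ala-AGC-2-9 and tRNA:Ala-AGC-2-2, both lower in Sxl-RAC heads, against 28.5% of the nuclear tRNA genes.

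Most of the 20 genes, 18 in number, lay in the authors' deposited table below a log2 fold change of 0, against 64.2% of all 137 nuclear tRNA genes. The median over the 20 genes was -0.23, and over the 117 other nuclear tRNA genes it was -0.04. Copies of a family share reads, so these 20 values are not 20 independent observations. They are also relative to the other tRNA genes, because the authors scaled each class of noncoding RNA by itself. Moving them to the scale of the microRNAs adds -0.43 to every log2 fold change. On that scale, with Wald p-values recomputed and adjusted over the tRNA genes, 14 of the 20 genes passed, 0 higher and 14 lower, and 65.0% of the 137 nuclear tRNA genes passed lower. The 14 genes were the 12 Ala-AGC genes and 2 of the 7 Pro-AGG genes.

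**Figure D1:**
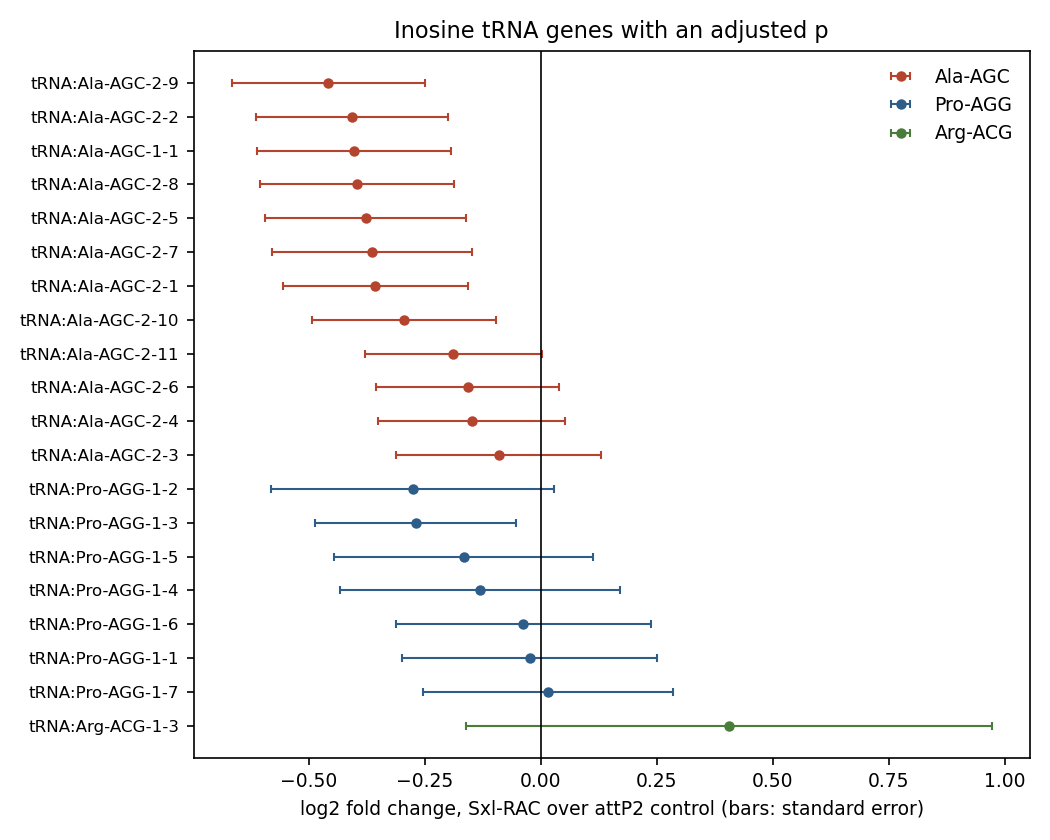
Log2 fold change of Sxl-RAC over attP2 control for the 20 inosine tRNA genes with an adjusted p, from the authors' deposited table, with SE as bars. The 12 Ala-AGC genes all lie below 0, from -0.46 to -0.09, the 7 Pro-AGG genes lie between -0.28 and 0.01, and tRNA:Arg-ACG-1-3 lies at 0.41 with the widest bar; none passed the adjusted threshold.

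Alanine tRNA with an AGC anticodon, the most abundant of the 8 families, reads the alanine codons ending in U, C and A. Its 12 genes summed to 952, 1049 and 985 normalised reads in Sxl-RAC libraries a, b and c, against 1252, 1234 and 1176 in control libraries a, b and c. Every Sxl-RAC library lay below every control library. The mean was 995 ± 49.1 in Sxl-RAC heads and 1221 ± 39.5 in control heads (SD, n = 3 each), a ratio of 0.815 and a log2 ratio of -0.30. An exact two-sided permutation test over libraries returned p = 0.1, the smallest possible, and 0.4 after Benjamini-Hochberg adjustment over the 8 families. The sum rests on 7523 reads. On the microRNA scale the log2 ratio was -0.72. The summing over families was added after the data were seen.

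All 12 Ala-AGC genes were listed below 0 in the authors' deposited table. The mean of their log2 fold changes was -0.30 with a standard deviation of 0.12 between copies, less than the authors' median SE of 0.21 for a single gene. In 9 of the 12 genes the arms did not overlap, with Sxl-RAC lower, while 20.4% of the 54 nuclear tRNA genes with an adjusted p and recovered reads were separated in that direction. No Ala-AGC gene was separated in the other direction, which 5.56% of the 54 genes were. These 12 genes are among the 54, and the 9 are part of the 11 genes that were separated lower there. Copies share reads, so the 9 genes are not 9 independent observations. The standard deviation between copies is likewise not a spread between libraries. Over all 60 inosine tRNA genes with reads, 10 were separated lower and 2 higher. Of the 194 nuclear tRNA genes with recovered reads, 8.25% were separated lower and 3.61% higher. The 60 genes are among the 194, and the 10 are part of the 16 separated lower there. Besides the 9 Ala-AGC genes, tRNA:Ser-AGA-1-1 was separated lower, on 7 reads. Those separated higher were tRNA:Ser-AGA-2-1, on 14 reads, and tRNA:Thr-AGT-1-4, on 30.

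The gene with the lowest log2 fold change of the 20 was tRNA:Ala-AGC-2-9 (FBgn0051575; chromosome 3R, 17658381 to 17658453, in an intron of CG14322 on the opposite strand). It had 72.2, 83.2 and 67.2 normalised reads in the Sxl-RAC libraries, against 99.4, 109 and 98.8 in the control libraries. The arms did not overlap. The authors' deposited table lists -0.46 as its log2 fold change (SE 0.21, DESeq2 adjusted p 0.0993). The next lowest, tRNA:Ala-AGC-2-2 (FBgn0051570), had 78.5, 86.9 and 76.8 normalised reads in the Sxl-RAC libraries, against 109, 121 and 89.1 in the control libraries. Its arms were also separate, and the authors' deposited table lists -0.41 for it (SE 0.21, DESeq2 adjusted p 0.169).

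The most abundant alanine copy was tRNA:Ala-AGC-2-11 (FBgn0051215; chromosome 3R, 19790972 to 19791044, between genes), with a mean count of 104. It had 93.1, 102 and 97.7 normalised reads in the Sxl-RAC libraries, against 114, 103 and 116 in the control libraries. The highest Sxl-RAC library and the lowest control library were close, and the authors' deposited table lists a log2 fold change of -0.19 (SE 0.19, DESeq2 adjusted p 0.608). The copy nearest to 0, at -0.09, was tRNA:Ala-AGC-2-3, where a Sxl-RAC library was highest and a control library lowest. It had 76.4, 83.2 and 107 normalised reads in the Sxl-RAC libraries, against 102, 105 and 70.8 in the control libraries. This copy, which sits between genes on 3R, was named after its values were seen.

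**Figure D2:**
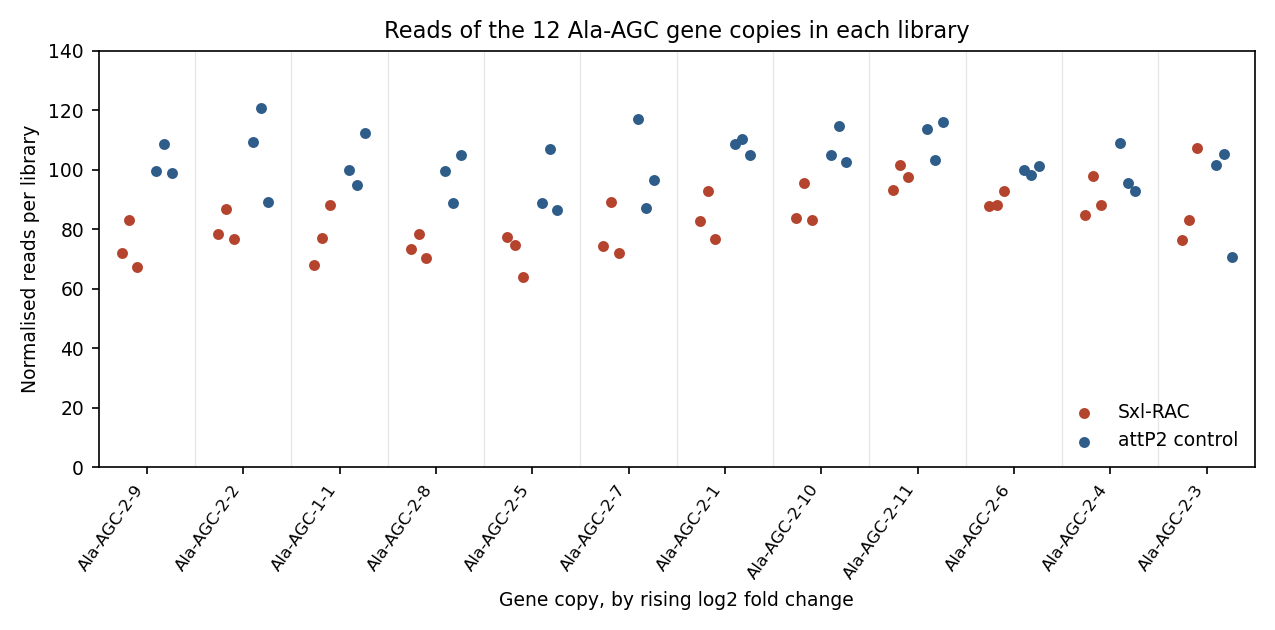
Normalised reads of each of the 12 Ala-AGC gene copies in the 3 Sxl-RAC libraries (red, left) and the 3 attP2 control libraries (blue, right), ordered by log2 fold change. In 9 copies all red points lie below all blue points; in tRNA:Ala-AGC-2-3 at the right the arms are mixed.

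The lower level of Ala-AGC could be set against its partners in the same libraries, a comparison that no scaling alters. The alanine codon box is also read by Ala-CGC (3 genes) and Ala-TGC (2 genes). Ala-AGC made up 78.3, 79.4 and 76.8% of alanine reads in the Sxl-RAC libraries, against 80.9, 80.2 and 81.1% in the control libraries. The arms did not overlap. The means were 78.2 ± 1.33% in Sxl-RAC heads and 80.7 ± 0.476% in control heads (SD, n = 3 each), a difference of -2.55 percentage points. The exact two-sided permutation p was 0.1, and 0.6 after adjustment over the 6 boxes with recovered shares. The exact 95% binomial interval of Sxl-RAC library c, 73.7 to 79.7% from 801 alanine reads, lay below all 3 control shares, and that of control library a, 79.5 to 82.2% from 3393 reads, lay above all 3 Sxl-RAC shares. The closest libraries overlapped: the interval ran from 76.9 to 81.8% in Sxl-RAC library b, with 1079 reads, and from 78.3 to 82.0% in control library b, with 1786. These intervals cover counting error only, since reads without molecular identifiers are not independent molecules. The partners differed from each other. Ala-CGC averaged 211 ± 5.56 normalised reads in Sxl-RAC heads and 212 ± 17.5 in control heads, a log2 ratio of -0.0045. Ala-TGC averaged 66.4 ± 12.5 in Sxl-RAC heads and 79.8 ± 6.66 in control heads, a log2 ratio of -0.27 (SD, n = 3 each). Both had overlapping arms.

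**Figure D3:**
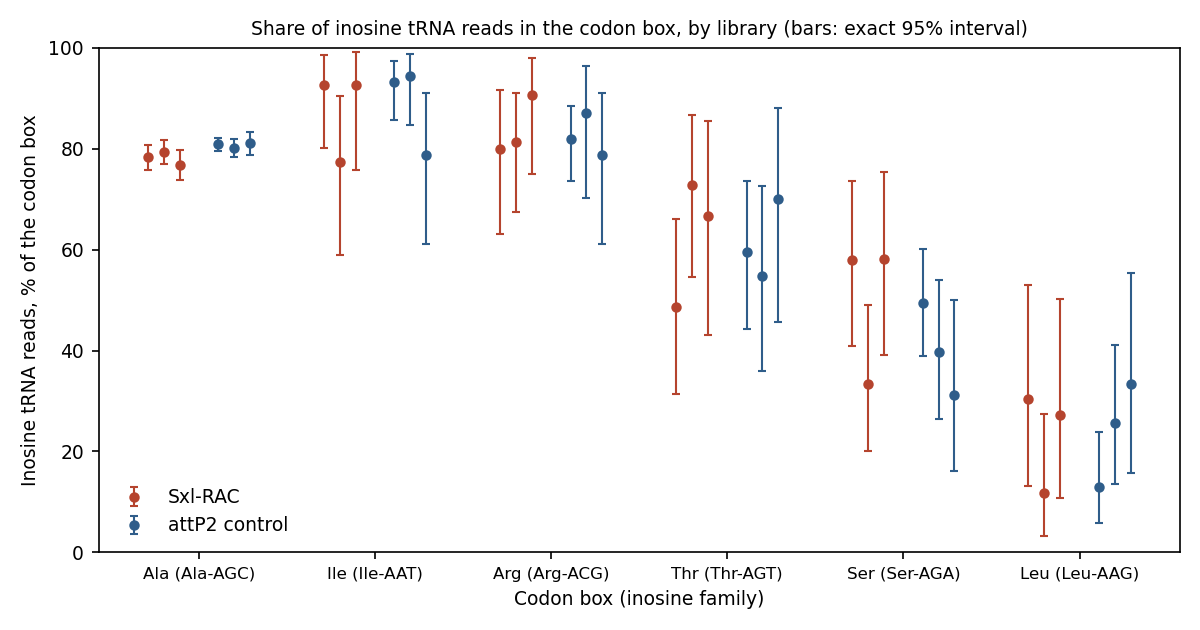
Share of the reads of a codon box that fell on its inosine tRNA genes, for the 3 Sxl-RAC libraries (red, left) and the 3 attP2 control libraries (blue, right) in 6 boxes, with exact 95% binomial intervals. The arms are separate in the alanine box, at 76.8 to 79.4% in Sxl-RAC and 80.2 to 81.1% in control libraries, and overlap in the other 5.

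Proline tRNA with an AGG anticodon reads proline codons and came from 7 genes on arms 2L and 3L. The family summed to 368, 566 and 451 normalised reads in the Sxl-RAC libraries, against 521, 645 and 362 in the control libraries. The arms overlapped fully, with the lowest value in a control library. The means were 462 ± 99.5 in Sxl-RAC heads and 509 ± 142 in control heads (SD, n = 3 each), a log2 ratio of -0.14 (exact two-sided permutation p = 0.8), and without control library b it was 0.064. The spread between libraries was wider than in Ala-AGC, at a pooled standard deviation of 0.37 on the log2 scale, against 0.06. Of the 7 genes, 6 had a log2 fold change below 0 and none was called.

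A single copy stood above the others in Pro-AGG. The gene tRNA:Pro-AGG-1-3 (FBgn0028911; chromosome 2L, 14599396 to 14599467, overlapping an exon of osp on the same strand) had a mean count of 169, the highest of the 64 genes. That was 3.17 times the median of the other 6 copies, which lay between 49.1 and 54.96, and 34.7% of the family's counts. It had 113, 202 and 146 normalised reads in the Sxl-RAC libraries, against 173, 242 and 137 in the control libraries. Its arms overlapped, and its log2 fold change is listed in the authors' deposited table as -0.27 (SE 0.22, DESeq2 adjusted p 0.445). Whether reads of osp add to this count was not tested. The neighbouring tRNA:Pro-AGG-1-4 (FBgn0028910), which overlaps an osp exon on the opposite strand, had a mean count of 54.1, within the range of the rest.

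The other 6 families were close to the limit of detection, with 44 to 246 reads each over all 6 libraries. Threonine tRNA with an AGT anticodon was the 1 family among them in which the arms did not overlap. Its 8 genes summed to 17.8, 29.4 and 22.4 normalised reads in the Sxl-RAC libraries, against 12.8, 14.7 and 17.1 in the control libraries. The means were 23.2 ± 5.83 in Sxl-RAC heads and 14.8 ± 2.16 in control heads (SD, n = 3 each), a log2 ratio of 0.64. The exact two-sided permutation p was 0.1, and 0.4 after adjustment over the 8 families. The family had 114 reads in all, and its exact 95% Poisson intervals were wide. That of Sxl-RAC library b, from 18.8 to 43.7, lay above all 3 control values, while those of Sxl-RAC libraries a (10.4 to 28.5) and c (12.3 to 37.6) held all 3. The interval of Sxl-RAC library b overlapped those of control libraries b (8.54 to 23.5) and c (9.34 to 28.7). It did not overlap that of control library a (8.49 to 18.5). The log2 ratio of the family was 0.21 on the microRNA scale. Its threonine partners also had positive log2 ratios, 1.47 for Thr-CGT on 14 reads and 0.33 for Thr-TGT on 59, with overlapping arms. The mean share of Thr-AGT in threonine reads was 62.7% in Sxl-RAC and 61.5% in control libraries (exact two-sided permutation p = 0.9). The most abundant copy, tRNA:Thr-AGT-1-7 (FBgn0051471, in an intron of bnl on the opposite strand), had 6.28, 13.5 and 11.2 normalised reads in the Sxl-RAC libraries, against 7.30, 8.62 and 4.88 in the control libraries, which overlap.

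**Figure D4:**
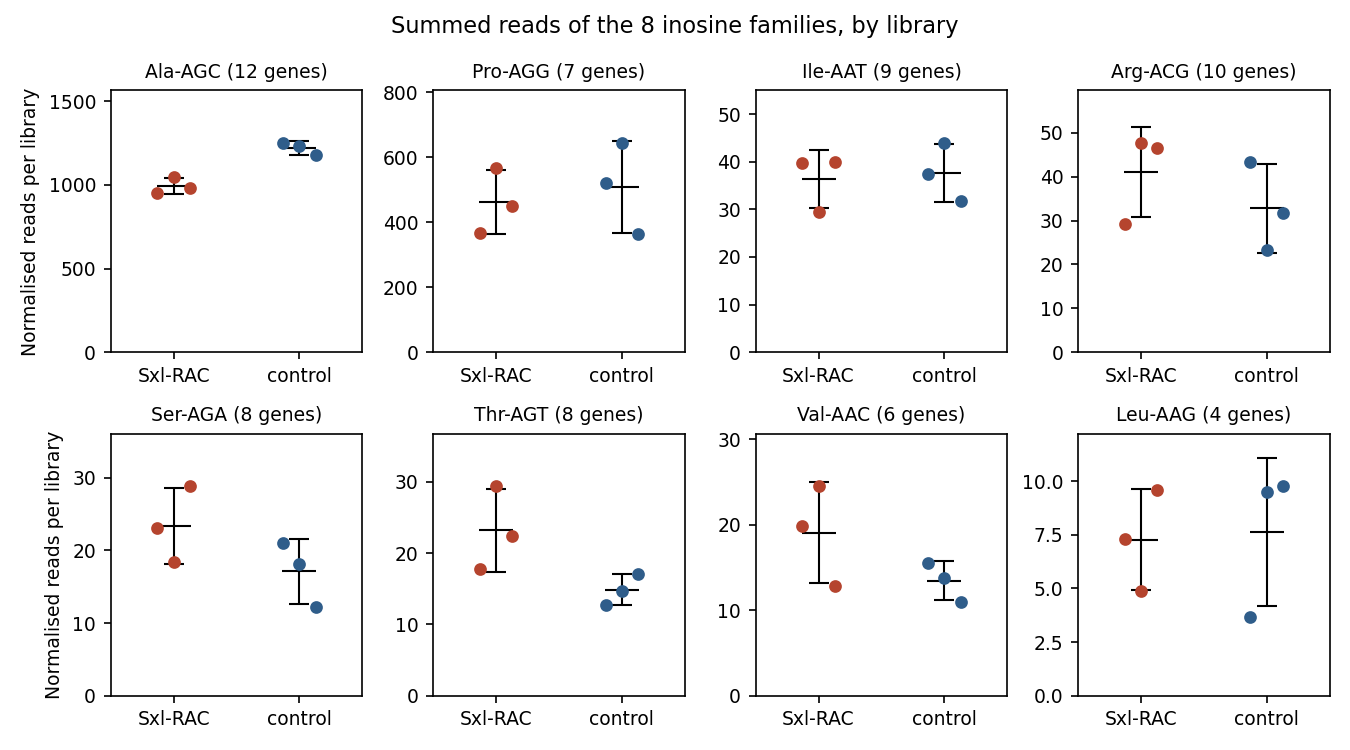
Normalised reads summed over the genes of each inosine family in the 3 Sxl-RAC libraries (red, left) and the 3 attP2 control libraries (blue, right), with mean and standard deviation in black; each panel has its own linear axis from 0. The arms are separate in Ala-AGC, where Sxl-RAC is lower at 952 to 1049 against 1176 to 1252, and in Thr-AGT, where it is higher at 17.8 to 29.4 against 12.8 to 17.1.

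Valine tRNA with an AAC anticodon summed to 19.9, 24.5 and 12.8 normalised reads in the Sxl-RAC libraries, against 15.5, 13.8 and 10.98 in the control libraries. The log2 ratio was 0.50 and the arms overlapped (exact two-sided permutation p = 0.3). Its most abundant gene, tRNA:Val-AAC-2-4 (FBgn0012009), lies in an intron of CG10713 on the same strand. In the authors' deposited table it had a mean count of 6.13 and a log2 fold change of 0.32 (SE 0.74).

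Serine tRNA with an AGA anticodon, which has an extended variable arm, summed to 23.0, 18.4 and 28.8 normalised reads in the Sxl-RAC libraries, against 21.0, 18.1 and 12.2 in the control libraries. The log2 ratio was 0.45 and the arms overlapped (exact two-sided permutation p = 0.2). The most abundant copy, tRNA:Ser-AGA-2-5 (FBgn0011986), had a mean count of 4.58. The authors' deposited table lists 0.64 as its log2 fold change (SE 0.86).

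Arginine tRNA with an ACG anticodon summed to 29.3, 47.7 and 46.4 normalised reads in the Sxl-RAC libraries, against 43.3, 23.3 and 31.7 in the control libraries. The log2 ratio was 0.33 with overlapping arms (exact two-sided permutation p = 0.3), and -0.10 on the microRNA scale. Its gene tRNA:Arg-ACG-1-3 (FBgn0011956; chromosome 2R, 6169607 to 6169679, between genes) had the highest log2 fold change of the 20 genes, listed as 0.41 in the authors' deposited table (SE 0.57, DESeq2 adjusted p 0.75). It had 11.5, 13.5 and 14.4 normalised reads in the Sxl-RAC libraries, against 14.6, 5.17 and 8.54 in the control libraries. The highest of the 6 values was a control library, and the sign of the gene's value also turned on the microRNA scale, to -0.024.

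Leucine tRNA with an AAG anticodon was the scarcest family, with 7.32, 4.89 and 9.61 normalised reads in the Sxl-RAC libraries, against 3.65, 9.48 and 9.76 in the control libraries. The log2 ratio was -0.07 (exact two-sided permutation p = 0.9), and leaving out a library moved it between -0.40 and 0.15. Its most abundant gene was tRNA:Leu-AAG-1-1 (FBgn0050241, in an intron of pcs on the opposite strand) with 21 reads. The authors' deposited table lists -0.77 for this gene (SE 1.046).

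Isoleucine tRNA with an AAT anticodon summed to 39.8, 29.4 and 40.02 normalised reads in the Sxl-RAC libraries, against 37.4, 44.0 and 31.7 in the control libraries. The log2 ratio was -0.05 (exact two-sided permutation p = 0.8). Its most abundant gene, tRNA:Ile-AAT-1-3 (FBgn0011881; chromosome 2R, 13430282 to 13430355, in an intron of ATP8A on the same strand), had 10.5, 13.5 and 4.80 normalised reads in the Sxl-RAC libraries, against 12.8, 15.5 and 8.54 in the control libraries. The arms overlapped, and the authors' deposited table lists -0.35 for this gene (SE 0.57) with no adjusted p.

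Expressed as a share of the reads on all 64 genes, which no scaling alters, Ala-AGC did not separate the arms. It made up 65.3, 59.3 and 61.7% in the Sxl-RAC libraries, against 65.7, 61.6 and 71.2% in the control libraries (exact two-sided permutation p = 0.3). Thr-AGT did, with 1.22, 1.66 and 1.40% in the Sxl-RAC libraries, against 0.670, 0.732 and 1.03% in the control libraries (exact two-sided permutation p = 0.1, adjusted over the 8 families 0.4). The shares of the other 6 families overlapped. Over all 64 genes the sum was 1608 ± 156 normalised reads in Sxl-RAC heads and 1854 ± 181 in control heads (SD, n = 3 each), with overlapping arms and an exact two-sided permutation p of 0.2.

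Read counts per gene differed widely between the families, and how far they follow tRNA amounts was not tested. Per 100 bases of gene and per gene copy, the mean count was 126 for Ala-AGC and 96.4 for Pro-AGG. It was 5.56 for Ile-AAT, 5.06 for Arg-ACG, 3.71 for Val-AAC, 3.21 for Thr-AGT, 3.09 for Ser-AGA and 2.27 for Leu-AAG. Ranges over all 6 libraries were compared without pairing families within a library, so an overlap does not show equal counts. Between neighbours in this order, these ranges overlapped in every pair except Pro-AGG and Ile-AAT. Here normalised reads per gene copy ran from 51.8 to 92.1 for Pro-AGG and from 3.26 to 4.88 for Ile-AAT.

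Gene copies with the same first number in the symbol carry the same mature sequence by the naming convention, and their counts were even in some families and uneven in others. The 11 Ala-AGC-2 genes had mean counts between 83.1 and 104, a coefficient of variation of 6.37%. In a single library the variance of their reads over the mean was 0.520 to 1.43, where a Poisson spread gives 1, and for reads summed over the 6 libraries it was 2.16. The 6 Pro-AGG-1 genes other than tRNA:Pro-AGG-1-3 had ratios of 0.142 to 0.852 in a single library and 0.460 for the summed reads. Of the 12 Ala-AGC genes, 10 lie within 48.5 kb of chromosome 3R, and the copy on 3L, tRNA:Ala-AGC-2-1 in an intron of nmo, had 96.1, within the range of the rest.

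The Arg-ACG-1 genes were uneven, with a ratio of variance to mean of 4.12 to 17.6 in each library. The 4 genes tRNA:Arg-ACG-1-1 to tRNA:Arg-ACG-1-4, which lie within 29.6 kb of chromosome 2R, held 236 of the 244 reads of the family. The 5 genes on chromosome 3R, within 1.09 kb, held 6 reads, and tRNA:Arg-ACG-1-5 on 2R held 2. In the Ile-AAT-1 genes the ratio was 0.340 to 6.38: the 6 genes inside ATP8A held 194 reads, of which tRNA:Ile-AAT-1-3 had 77, and the 3 others 52. In the 7 Thr-AGT-1 genes mean counts ran from 0.349 to 8.62. Over the 64 genes, 24 lay in an intron of another gene, 3 overlapped an exon and 37 lay between genes. Reads from introns or neighbouring transcripts were not separated from tRNA reads, and their part in the unevenness was not tested.

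**Figure D5:**
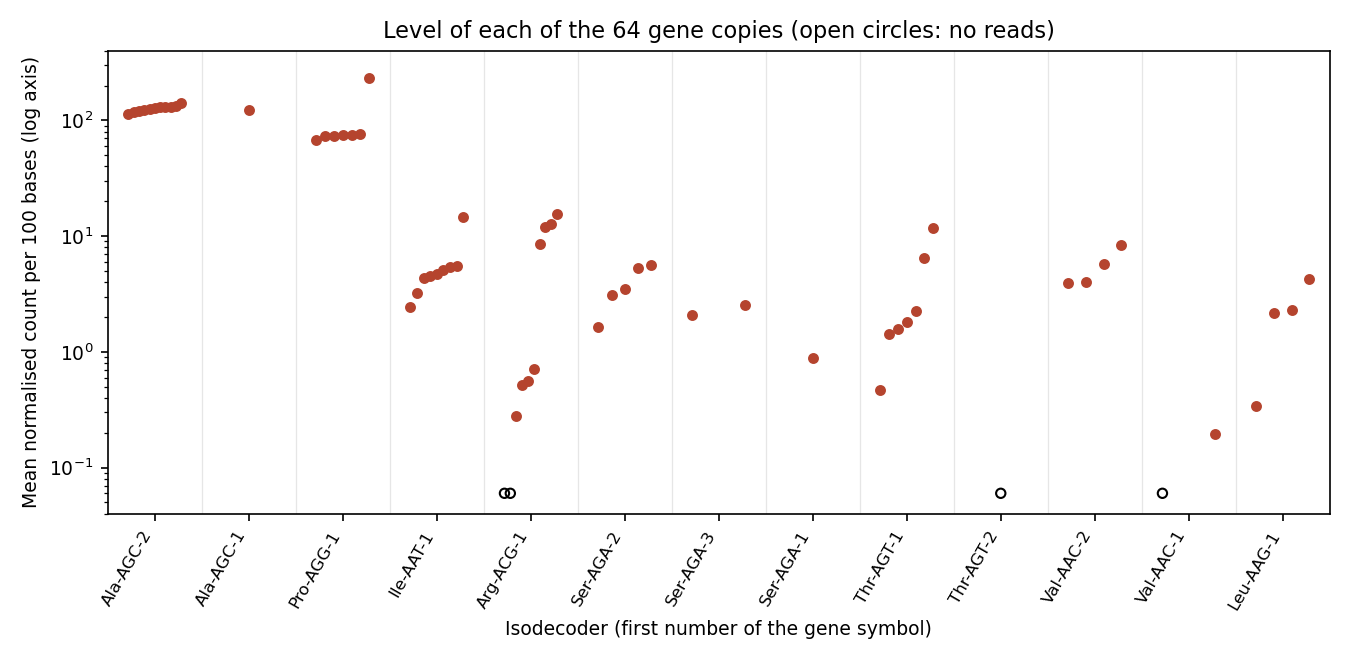
Mean normalised count per 100 bases of each of the 64 gene copies on a log axis, over all 6 libraries, grouped by isodecoder (the first number of the symbol). The 11 Ala-AGC-2 copies and 6 of the 7 Pro-AGG-1 copies form tight rows with tRNA:Pro-AGG-1-3 above them, the Arg-ACG-1 copies fall into a high and a low group, and the 4 genes without reads are open circles.

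The inosine tRNA held very different shares of the reads of their codon boxes, judged by summed mean counts. How far these shares follow tRNA amounts was not tested. The share was 88.5% for isoleucine, 83.2% for arginine, 79.6% for alanine, 62.3% for threonine, 44.7% for serine, 22.9% for leucine, 6.14% for proline and 0.999% for valine. By gene number the proline family made up 41.2% of its box, and the valine family had 6 genes beside 9 of its partners. In the threonine, serine, arginine, leucine and isoleucine boxes the share of each library could be recovered, and the arms overlapped in all 5. In the proline and valine boxes some partners were too abundant for recovery of single reads.

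The partner isoacceptors of these boxes, 61 genes with C or U at the wobble position and so no adenosine to deaminate, were compared with the inosine set. In the authors' deposited table an adjusted p was given for 23 of them, none was called and none had an unadjusted p under 0.05. The median of their log2 fold changes was -0.08. The Arg-CCG anticodon has no gene in the table. The 39 tRNA genes for His, Asn, Asp and Tyr have a wobble guanosine that can be modified to queuosine. In this class 20 genes had an adjusted p, with a median of -0.15, and 3 were called lower with none higher. Over the 137 nuclear tRNA genes 21.2% were called in either direction. The classes differed in depth and so in power. Median mean count and SE were 1334 and 0.09 in the queuosine class, 148 and 0.18 in the partners. They were 88.8 and 0.22 in the inosine set. Of 104 genes for other RNA polymerase III products with an adjusted p, scaled in their own classes, none was called and 5 had an unadjusted p under 0.05. The difference between the inosine set and these classes was not tested.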

How the data were processed

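Small RNA of adult male heads was sequenced, and 1 table of the authors' comparison of Sxl-RAC with attP2 control was analysed. Per the submitters' processing notes, Trim Galore 0.6.7, Bowtie2 2.5.3, featureCounts 2.0.8 and DESeq2 2.11.40.8 were used. The genome build, the strand setting and the treatment of reads with several matches are not given in the sources used here, and both of the last can decide how reads divide between identical tRNA copies. Per the file headers, the table holds a mean normalised count (a signal: the average over libraries of reads divided by size factors). The authors also deposited a log2 fold change, its standard error in log2 units, a Wald score, a p-value and an adjusted p-value. No per-sample column is present. Benjamini-Hochberg adjustment within 6 annotation classes gave the deposited adjusted p within 1% for all 1128 genes that have one, so the classes were taken to have been fitted class by class.

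Symbols and 1-based coordinates came from Ensembl release 115 of build BDGP6.54, which matched 3545 of 3546 identifiers. The 2 annotated pseudogenes of these families were not analysed here. The members and gene lists were chosen with earlier results of these data known. Named genes were the most abundant of each family and those with the lowest and the highest log2 fold change among genes with an adjusted p. Any other gene named with a level was chosen after its values were seen, among them tRNA:Ala-AGC-2-2, tRNA:Ala-AGC-2-1 and tRNA:Pro-AGG-1-4.

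Reads per library were recovered as follows. A mean count adds up the reads of the libraries, and a read counts for the inverse of its library's size factor, divided by the number of libraries. The 33 distinct values under 0.95 among tRNA genes could all be rebuilt from whole reads in 6 libraries. Of 62 divisions of the libraries into arms, 1 gave the deposited log2 fold change and standard error in 42 of 42 genes, the next best in 0, and it had 3 libraries in each arm. The arms take their names from the authors' numerator, per the file headers and name. Whole reads were then found for 214 of 214 genes with reads and a mean count under 170, within 2e-09 of the deposited log2 fold change. On simulated data modelled on the tRNA genes, 205 of 205 genes under a mean count of 170 gave a single set of reads, right in every library for all 205. Of these, 32 had mean counts between 60 and 170, a range that holds all the Ala-AGC genes. The tRNA size factors were 0.956, 0.817 and 0.625 for Sxl-RAC and 2.19, 1.16 and 0.819 for control. Control libraries a and b were thus deeper than every Sxl-RAC library, while control library c was close to Sxl-RAC library b. The recovery, the family sums and the shares were added after the data were seen.

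Python 3.11.15, numpy 2.4.6, pandas 2.3.3, scipy 1.17.1 and matplotlib 3.10.9 were used. Alternatives were another threshold, scale, filter and adjustment, a value per isodecoder, and leaving out each library.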

Additional observations from a re-analysis of the deposited data

How the results depend on the processing

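The count of 0 inosine tRNA genes called in either direction was the same under several settings. These were 1 adjustment over all genes, re-centring, a mean count of at least 100, no filter, a value per isodecoder and the removal of any single library. Some could hardly have changed it. Re-centring took away a median of only -0.011, and at a mean count of at least 100 only tRNA:Ala-AGC-2-11 and tRNA:Pro-AGG-1-3 were left. The value per isodecoder kept the average SE of a single copy, so joining the copies brought no gain in precision. The 11 Ala-AGC-2 copies, whose median SE was 0.21, were thus tested as if they were 1 copy. Each library removal lowered power and kept the deposited p-values of the other genes. In the library removals the dispersion was that of the deposited fit, and an arm reduced to 2 libraries was assumed to vary as before. At an adjusted p under 0.1, 1 gene was called lower, and on the microRNA scale 14 were. That scale, whose own error is not in the test, moved the median of the 20 genes, -0.23 as deposited, to -0.66 and the family mean log2 fold changes to -0.73 (Ala-AGC), -0.56 (Pro-AGG), -0.024 (Arg-ACG) and -0.77 (Ile-AAT). With no filter the median was -0.031, over 60 genes. At a mean count of at least 100 the Ala-AGC mean was -0.19, since 1 gene was left. Leaving out a library moved the Ile-AAT mean, which rests on 1 gene, between -0.65 and -0.064, the Arg-ACG mean between 0.12 and 0.96, and the Pro-AGG mean between -0.30 and 0.045. Among summed reads, the sign turned on the microRNA scale for Arg-ACG (-0.10), and for the genes tRNA:Arg-ACG-1-3 (-0.024) and tRNA:Val-AAC-2-4 (-0.11). Without a library the log2 ratio ran from -0.34 to 0.064 in Pro-AGG, from -0.40 to 0.15 in Leu-AAG, from -0.16 to 0.082 in Ile-AAT, from -0.33 to -0.26 in Ala-AGC, from 0.44 to 0.80 in Thr-AGT, from 0.13 to 0.58 in Arg-ACG, from 0.28 to 0.72 in Val-AAC and from 0.26 to 0.63 in Ser-AGA. The difference in the Ala-AGC share of alanine reads ran from -3.17 to -1.85 percentage points. No paired analysis was possible because the labels list 1 group and the recovered libraries carry no replicate number. Reads per library limit the 6 scarce families, and the cause of the shifts was not tested.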

Other observations

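Added up, the 6 families other than Ala-AGC and Pro-AGG, a grouping made after the values were seen, had 137, 154 and 160 normalised reads in the Sxl-RAC libraries, against 134, 123 and 113 in the control libraries. The arms did not overlap, with Sxl-RAC higher at a log2 ratio of 0.29 (exact two-sided permutation p = 0.1, the smallest possible). Because the grouping followed the values, this p cannot measure how unusual the difference is. Partner anticodons without a gene at a mean count of 10 were mostly higher too, with overlapping arms. Ser-TGA had a log2 ratio of -0.20, and the others ran from 0.097 (Leu-CAG) to 1.47 (Thr-CGT). The difference from these partners was not tested. On the microRNA scale the log2 ratio of the 6 families was -0.14. Their sum rests on 886 reads.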
